A study of Mus musculus with 9 samples.

Results

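A set of 38 genes of blood clotting, clot breakdown and platelets was followed in the tibia of mice after fracture. The genes were taken by symbol from a list of known members of these systems and all 38 had a row among the 22354 gene symbols of the deposited table. They comprised 9 platelet and megakaryocyte genes, 7 genes of tissue factor and fibrinolysis, 6 anticoagulant genes, 3 protease-activated receptors, 10 clotting factors and the 3 fibrinogen chains. A broken bone bleeds, and clotting at the break forms the hematoma in which repair starts. Tissue factor on cells outside the vessels starts the clotting cascade, thrombin cuts fibrinogen into fibrin, platelets plug and scaffold the clot, and the plasmin system later dissolves the fibrin. Platelets are shed by megakaryocytes of the bone marrow and carry megakaryocyte transcripts, while most soluble clotting factors are made by hepatocytes.

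The samples came from 9 female wild-type C57BL/6j mice, labelled as 2 months old, with 3 arrays in each of 3 groups. Active mice had an open tibia fracture and were given carprofen, an NSAID that inhibits the cyclooxygenases, for 3 days at the start of the dark phase, when mice are awake. Resting mice had the same fracture and the same drug early in the light phase, when mice sleep. Control mice had no surgery and no NSAID. The central piece of the tibia, with callus and hematoma where there was a fracture, was taken on day 3 at one clock time, so the time since the last dose differed between Active and Resting. The labels call every sample a hematoma, the unfractured ones included. By the methods, the surgery also put a needle wire down the marrow canal of the tibia, under isoflurane and with buprenorphine given before. Fracture without NSAID was not among the groups. The fracture, the rest of the surgery and the drug therefore cannot be told apart in a comparison with Control. Both comparisons with Control also share the same 3 Control arrays. The study speaks both of individual mice and of RNA pools, so a p-value here refers to the spread among the RNA samples hybridized.

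Values are the authors' normalized log2 signals from whole-transcript arrays, and every difference below is a log2 difference between group means. Calls were made with limma at an adjusted p under 0.05 over all 24367 rows. In a bulk tissue, fewer cells of a type and less RNA per cell cannot be told apart. The median of all signals was 6.37 and their lower quartile was 5.05, which serve as a scale for the levels below. Levels of different genes are not compared, because each gene has its own probes.

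In Active against Control, 9 of the 38 genes were higher and 11 were lower, where 11.8% of all rows were higher and 12.1% were lower. In Resting against Control, 8 were higher and 10 were lower, where 9.08% of all rows were higher and 10% were lower. The same 18 genes were called in both comparisons, and F2rl1 and F10 were called in Active alone. Of the 9 platelet and megakaryocyte genes, 6 fell and none rose in either fractured group, and of the 7 tissue factor and fibrinolysis genes, 5 rose and none fell. The median log2 difference of the platelet genes was -1.56 in Active against Control and -1.29 in Resting against Control, and that of the tissue factor and fibrinolysis genes was 1.01 and 0.92 in these comparisons. The median over all rows was 0.02 in both. The platelet median minus the fibrinolysis median was -2.57 in Active against Control and -2.21 in Resting against Control. By single arrays, 11 of the 38 genes had all 3 Active arrays above all 3 Control arrays and 12 had them all below, where 18.9% and 17.6% of all rows did. For Resting against Control, 10 had all arrays above and 11 all below, where 17.6% and 17.8% of all rows did. Between Active and Resting no gene of the 38 was called, and no row of the whole table was called either (0%).

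**Figure D1:**
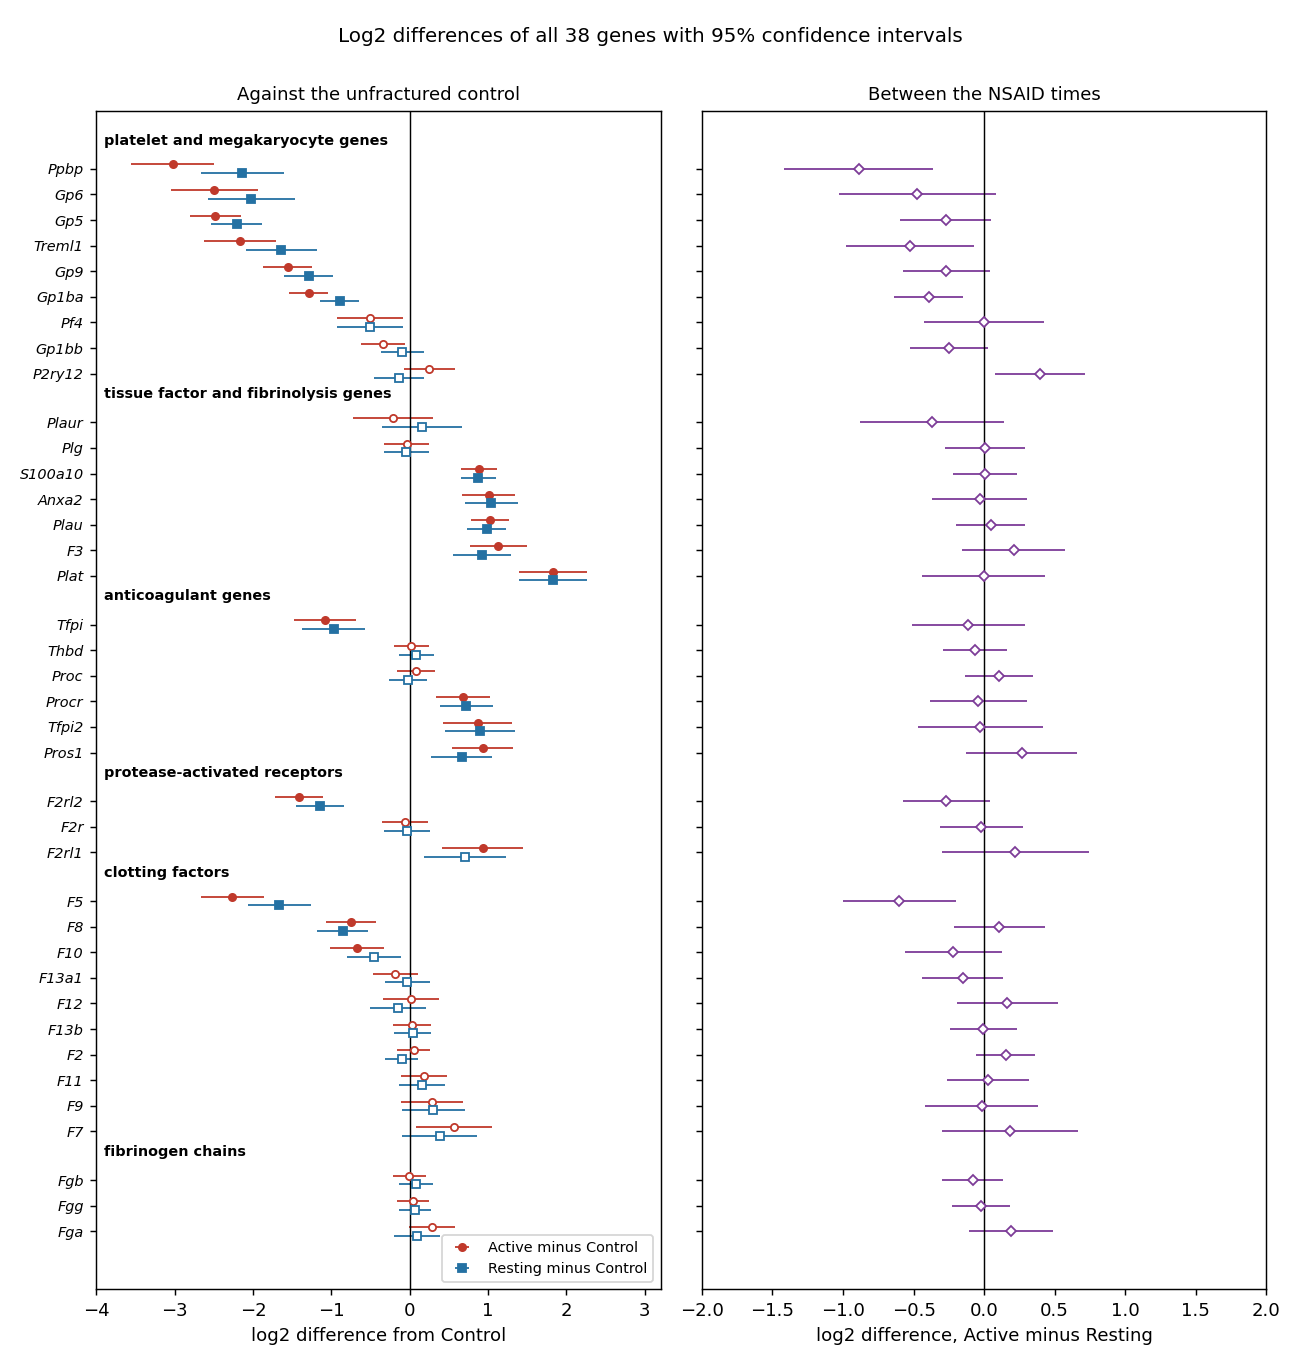
Log2 difference of each of the 38 genes with its 95% confidence interval, grouped by role, in Active against Control, Resting against Control and Active against Resting. Filled points passed an adjusted p under 0.05 and open points did not. In both comparisons with Control, the filled points of 6 platelet genes lie to the left of 0. Those of 5 tissue factor and fibrinolysis genes lie to the right, and no point is filled in Active against Resting.

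The platelet genes that fell included a granule chemokine and the receptors of the platelet surface. Ppbp encodes pro-platelet basic protein, a chemokine precursor stored in alpha granules. Its log2 signals were 9.73, 8.997 and 8.82 in Active, 10.20, 10.19 and 9.82 in Resting and 12.25, 12.52 and 11.85 in Control. Every fractured tibia lay below every Control tibia, and every Active array also lay below every Resting array. The difference was -3.02 (SE 0.24) in Active against Control, or 8.13-fold lower (limma adjusted p = 1.2e-05), and -2.13 (SE 0.24) in Resting against Control, or 4.39-fold lower (adjusted p = 1.4e-04). Pf4, platelet factor 4, is the other main chemokine of the alpha granule and is the next protein-coding gene after Ppbp on chromosome 5. Log2 signals of Pf4 were 10.82, 10.61 and 10.43 in Active, 10.29, 10.81 and 10.77 in Resting and 11.26, 11.38 and 10.75 in Control. The groups overlapped, since Control replicate 3 lay below 1 Active and 2 Resting arrays. The log2 difference of Pf4 was -0.51 in Active and -0.51 in Resting against Control, with adjusted p = 0.084 and 0.097. Without Control replicate 3, both were -0.70 and passed, with adjusted p = 0.024 in Active and 0.029 in Resting. With each array left out in turn, they ranged from -0.70 to -0.38 in Active and from -0.70 to -0.34 in Resting. No other setting gave a call of Pf4.

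The glycoprotein Ib-IX-V complex binds von Willebrand factor and tethers platelets to the damaged vessel wall. Gp5, its glycoprotein V chain, had log2 signals of 5.84, 5.45 and 5.33 in Active, 5.98, 5.81 and 5.65 in Resting and 7.99, 8.14 and 7.93 in Control. All fractured tibiae lay below the median of all signals and below Control, with a difference of -2.48 (SE 0.15) in Active (adjusted p = 3.1e-06) and -2.21 (SE 0.15) in Resting (adjusted p = 9.3e-06). Gp9, the glycoprotein IX chain, had log2 signals of 7.64, 7.43 and 7.20 in Active, 7.88, 7.63 and 7.57 in Resting and 8.82, 9.06 and 9.07 in Control. All 6 arrays of fractured tibiae lay below the 3 Control arrays, and the difference was -1.56 (SE 0.14) in Active and -1.29 (SE 0.14) in Resting (adjusted p = 2.5e-05 and 1.2e-04). Gp1ba, the alpha chain of glycoprotein Ib that carries the von Willebrand factor site, had log2 signals of 5.20, 5.33 and 5.07 in Active, 5.47, 5.67 and 5.64 in Resting and 6.44, 6.41 and 6.61 in Control. The 3 groups did not overlap, with Active lowest, Resting next and Control highest. Its difference from Control was -1.29 (SE 0.11) in Active and -0.90 (SE 0.11) in Resting (adjusted p = 2.0e-05 and 2.9e-04). Gp1bb, the beta chain, had log2 signals of 6.51, 6.48 and 6.61 in Active, 6.96, 6.73 and 6.65 in Resting and 6.78, 6.75 and 7.09 in Control. Its Active arrays lay below both other groups, but it was not called, with -0.34 in Active against Control (adjusted p = 0.074). The platform annotation gives its probe set to both Gp1bb and the neighbouring Septin5, so its signal may come from either gene. The probe sets of Gp1ba and of the receptor gene F2rl1 carry no symbol in that annotation. The names of these genes rest on the deposited gene symbols alone.

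The receptors for collagen and the platelet activation receptors did not all move. Gp6, glycoprotein VI, is the signalling collagen receptor of platelets. It had log2 signals of 7.21, 6.83 and 6.22 in Active, 7.38, 7.19 and 7.11 in Resting and 9.18, 9.70 and 8.87 in Control, with no overlap between the fractured tibiae and Control. The difference was -2.49 (SE 0.25) in Active (adjusted p = 5.1e-05) and -2.02 (SE 0.25) in Resting (adjusted p = 2.9e-04). Treml1 encodes TLT-1, a receptor held in alpha granules until the platelet is activated. Its log2 signals were 7.84, 7.62 and 7.18 in Active, 8.21, 8.01 and 7.997 in Resting and 9.43, 10.15 and 9.55 in Control, again with Active lowest, Resting next and Control highest without overlap. It fell by 2.17 on the log2 scale (SE 0.21) in Active and by 1.64 (SE 0.21) in Resting (adjusted p = 3.5e-05 and 3.0e-04). P2ry12 is the ADP receptor that clopidogrel blocks, and microglia and some macrophages also express it. Log2 signals of P2ry12 were 6.90, 7.28 and 7.17 in Active, 6.58, 6.63 and 6.96 in Resting and 6.68, 6.96 and 6.96 in Control. The 3 groups overlapped, and the difference from Control was 0.25 in Active (adjusted p = 0.26) and -0.14 in Resting (adjusted p = 0.58).

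**Figure D2:**
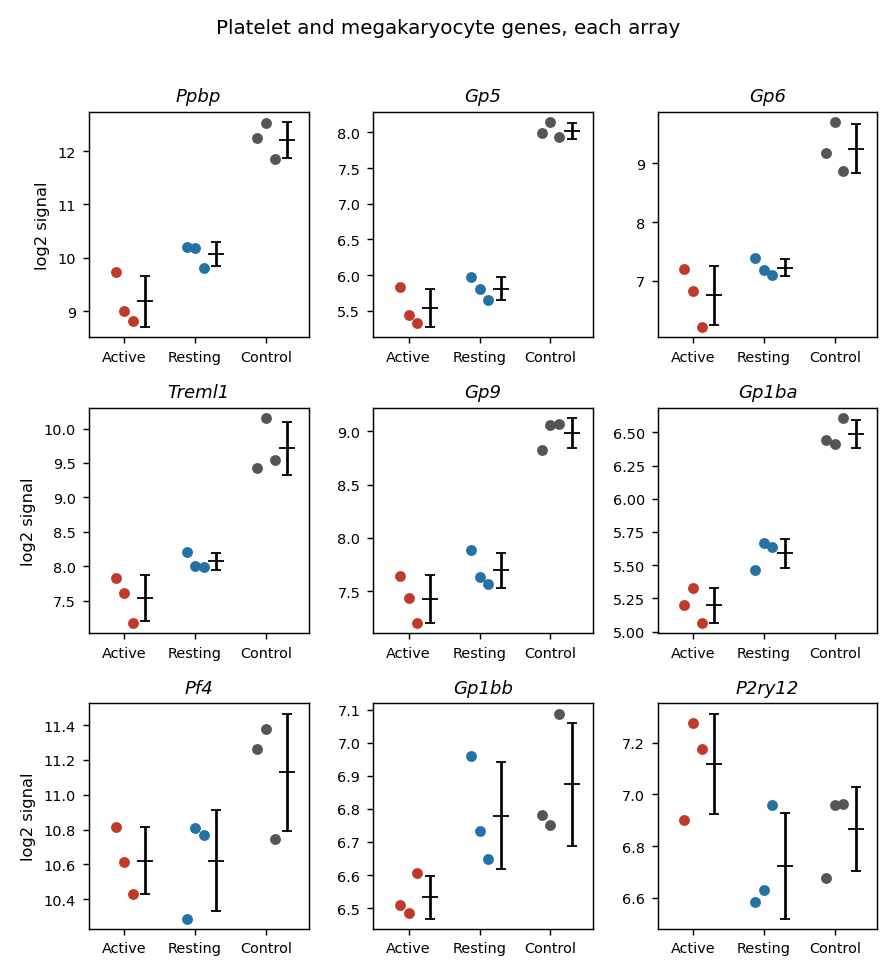
Log2 signal of each of the 9 platelet and megakaryocyte genes in the 3 Active, 3 Resting and 3 Control arrays, with 1 point for each array and the group mean with its SD. Ppbp, Gp5, Gp6, Treml1, Gp9 and Gp1ba have all fractured tibiae below all Control tibiae, while Pf4, Gp1bb and P2ry12 do not.

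The promoters of Ppbp and Pf4, which lie side by side but differed in size of change, and of Gp5 and Gp9, which encode chains of the same complex, are printed for comparison. Megakaryocyte genes are known to be activated by GATA factors, whose core motif holds GATAA, and by ETS factors, whose core motif holds GGAAG. Each sequence is the 250 bases before the annotated start in the RefSeq annotation of GRCm38.p6, read 5′ to 3′ on the strand of the gene, with GATAA (or TTATC, its reverse complement) and, likewise, GGAAG (or, as reverse complement, CTTCC) in capitals. The windows are chr5:90768268-90768517 on the plus strand for Ppbp, chr5:90772185-90772434 on the plus strand for Pf4, chr16:30310782-30311031 on the minus strand for Gp5 and chr6:87777820-87778069 on the plus strand for Gp9.
Ppbp: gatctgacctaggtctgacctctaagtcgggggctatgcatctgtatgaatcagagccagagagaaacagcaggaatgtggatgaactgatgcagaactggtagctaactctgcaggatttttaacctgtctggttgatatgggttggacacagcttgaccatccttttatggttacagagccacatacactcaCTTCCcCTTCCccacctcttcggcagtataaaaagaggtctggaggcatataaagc
Pf4: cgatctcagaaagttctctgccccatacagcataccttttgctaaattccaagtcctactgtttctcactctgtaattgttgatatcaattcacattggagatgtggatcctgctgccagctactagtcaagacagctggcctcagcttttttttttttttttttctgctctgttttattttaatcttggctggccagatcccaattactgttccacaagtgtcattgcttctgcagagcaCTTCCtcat
Gp5: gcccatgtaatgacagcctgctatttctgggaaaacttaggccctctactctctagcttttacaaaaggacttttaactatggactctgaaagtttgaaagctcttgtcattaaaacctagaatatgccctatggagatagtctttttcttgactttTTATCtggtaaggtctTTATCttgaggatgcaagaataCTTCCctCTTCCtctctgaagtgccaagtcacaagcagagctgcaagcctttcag
Gp9: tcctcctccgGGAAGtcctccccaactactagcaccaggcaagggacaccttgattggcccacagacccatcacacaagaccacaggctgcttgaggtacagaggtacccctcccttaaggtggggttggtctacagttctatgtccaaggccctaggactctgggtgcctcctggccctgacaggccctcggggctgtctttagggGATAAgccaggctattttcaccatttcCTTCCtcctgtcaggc
GATAA on either strand stood in 4 of the 9 platelet promoters (Gp1ba, Gp5, Gp9 and Gp6), or 44.4%, against 22.6% of all 32851 promoter windows of the same length. GGAAG on either strand stood in 8 of 9, or 88.9%, against 64.1% of all windows, and both motifs stood in 3 of 9, or 33.3%, against 13.2%. The Ppbp window held GGAAG 2 times and the Pf4 window 1 time, neither held GATAA, and the Gp5 window held each motif 2 times. A match describes the letters of these windows and is not a measured binding site. RefSeq windows were matched for 31 of the 38 genes.

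Megakaryocyte and platelet genes outside the 38 were read from a further list of 30. In Active against Control, 25 fell and none rose, with a median log2 difference of -1.18, and in Resting against Control 23 fell and none rose, with a median of -1.02. Of all rows, 12.1% were lower in Active and 10% in Resting. Gfi1b, a transcription factor needed for megakaryocytes and red cells, had log2 signals of 7.38, 7.02 and 6.73 in Active, 7.71, 7.73 and 7.46 in Resting and 9.94, 10.13 and 10.01 in Control. It was -2.98 (SE 0.16) from Control in Active and -2.39 (SE 0.16) in Resting (adjusted p = 1.9e-06 and 9.3e-06). Nfe2, a transcription factor needed for platelet release, differed by -2.49 and -1.81 (adjusted p = 5.4e-06 and 4.0e-05). Itga2b, the alpha IIb chain of the platelet fibrinogen receptor, differed by -2.35 and -1.77 (adjusted p = 4.5e-06 and 2.8e-05), and Tubb1, the beta tubulin of the platelet's marginal band, by -1.95 and -1.81 (adjusted p = 9.8e-06 and 2.3e-05). Markers of other marrow cells moved the same way. All 11 measured erythroid markers fell in both fractured groups, and their mean log2 signal lay between 6.38 and 7.50 in Active and between 7.51 and 8.04 in Resting, against 10.18 to 10.52 in Control. Of 12 B lymphocyte markers, 11 fell in both groups, and of 14 neutrophil markers, 14 fell in Active and 7 in Resting, with a mean log2 signal of 9.71 to 10.30 in Active, 10.48 to 10.76 in Resting and 11.07 to 11.32 in Control. The mean of the 9 platelet genes lay between 7.11 and 7.52 in Active and between 7.57 and 7.66 in Resting, against 8.74 to 9.01 in Control. The part of these marrow cells in the platelet result was not tested.

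**Figure D3:**
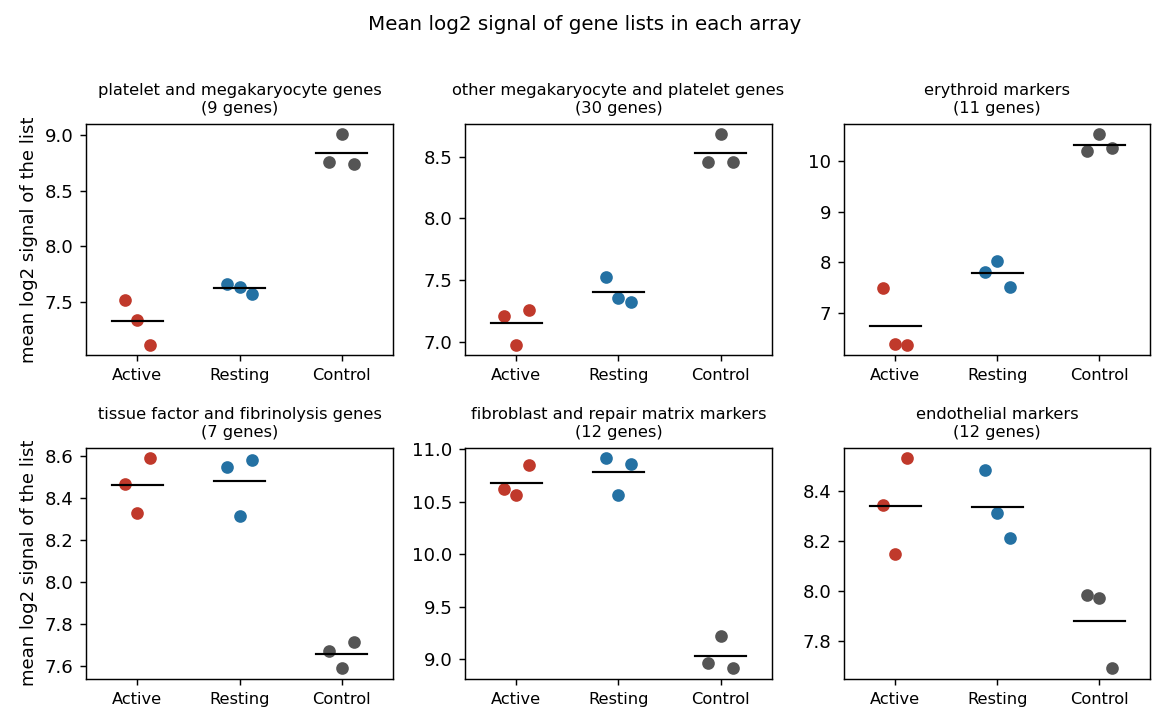
Mean log2 signal over the genes of each list, with 1 point for each array and a line at the group mean, in Active, Resting and Control. The platelet and erythroid lists lie lower in every fractured tibia than in every Control tibia, and the tissue factor and fibrinolysis list and the fibroblast list lie higher.

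Of the 7 genes of tissue factor and fibrinolysis, F3, Plat, Plau, Anxa2 and S100a10 rose in both fractured groups, and Plaur and Plg were not called. F3 encodes tissue factor, the cell-surface receptor for factor VII. Its log2 signals were 6.69, 7.19 and 7.03 in Active, 6.68, 6.54 and 7.07 in Resting and 5.86, 5.70 and 5.96 in Control. Every fractured tibia lay above every Control tibia, by 1.13 (SE 0.17) in Active and 0.92 (SE 0.17) in Resting (adjusted p = 5.6e-04 and 0.0028). With the methods' t-test, adjusted likewise, p was 0.063 in Resting. The methods state no adjustment for that test. At their cut, unadjusted p under 0.05 with more than 1.5-fold, F3 passed in both comparisons. Plat encodes tissue plasminogen activator, which cuts plasminogen on fibrin. Log2 signals of Plat were 8.51, 8.04 and 8.56 in Active, 8.48, 8.12 and 8.51 in Resting and 6.71, 6.76 and 6.14 in Control. Both fractured groups lay far above Control and overlapped each other. The difference was 1.83 (SE 0.20) in Active, or 3.55-fold higher (adjusted p = 7.6e-05), and 1.83 (SE 0.20) in Resting, or 3.56-fold higher (adjusted p = 1.1e-04). Plau encodes urokinase, the plasminogen activator of cell surfaces. It had log2 signals of 8.11, 8.07 and 8.33 in Active, 7.98, 8.14 and 8.24 in Resting and 7.17, 7.10 and 7.15 in Control, with Control lowest and closely grouped. The difference was 1.03 (SE 0.11) in Active and 0.98 (SE 0.11) in Resting (adjusted p = 7.7e-05 and 1.5e-04).

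Annexin A2 and S100A10 form a cell-surface complex that holds plasminogen and its activator together. Anxa2 had log2 signals of 10.28, 9.80 and 10.19 in Active, 10.25, 9.90 and 10.22 in Resting and 8.96, 9.02 and 9.27 in Control, and differed from Control by 1.01 (SE 0.15) in Active and 1.04 (SE 0.15) in Resting (adjusted p = 7.2e-04 and 8.2e-04). S100a10 had log2 signals of 11.11, 11.30 and 11.25 in Active, 11.25, 11.13 and 11.26 in Resting and 10.21, 10.38 and 10.41 in Control, and differed by 0.88 (SE 0.10) in Active and 0.88 (SE 0.10) in Resting (adjusted p = 1.3e-04 and 2.0e-04). For both partners of the complex the Control arrays lay below all others. Plaur, the urokinase receptor, did not follow its ligand. Log2 signals of Plaur were 9.33, 8.55 and 9.16 in Active, 9.64, 9.11 and 9.40 in Resting and 9.28, 8.85 and 9.55 in Control, the groups overlapped and it was not called (adjusted p = 0.59 in Active and 0.72 in Resting against Control). Plg, the plasmin precursor made by liver, had log2 signals of 5.24, 5.33 and 5.61 in Active, 5.55, 5.26 and 5.34 in Resting and 5.48, 5.30 and 5.51 in Control, which overlapped and lay under the median of all signals.

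**Figure D4:**
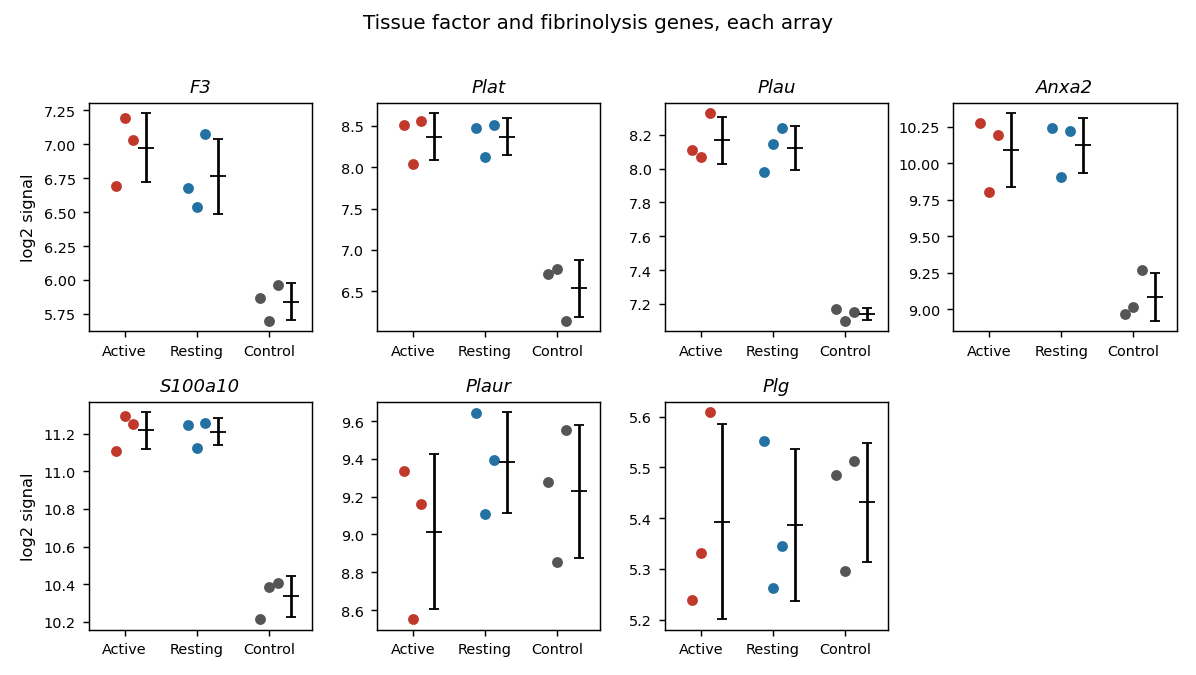
Log2 signal of the 7 tissue factor and fibrinolysis genes in the 3 Active, 3 Resting and 3 Control arrays, with 1 point for each array and the group mean with its SD. F3, Plat, Plau, Anxa2 and S100a10 have all fractured tibiae above all Control tibiae, while Plaur and Plg overlap.

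A further list held 13 other fibrinolysis genes and inhibitors, of which 3 rose and 1 fell in each fractured group. The median log2 difference of these 13 was 0.02 in Active and 0.11 in Resting against Control. By comparison, 11.8% of all rows were higher and 12.1% lower in Active, and 9.08% were higher and 10% lower in Resting. Serpinb2, an inhibitor of urokinase, had log2 signals of 4.15, 4.51 and 4.78 in Active, 4.55, 4.53 and 5.02 in Resting and 5.64, 5.89 and 5.79 in Control. All fractured tibiae lay below Control, with a difference of -1.29 (SE 0.18) in Active and -1.08 (SE 0.18) in Resting (adjusted p = 3.8e-04 and 0.0017). Its levels were low, with every fractured array under the lower quartile of all signals and every Control array under their median. Mrc2, a collagen receptor that associates with the urokinase receptor, differed by 0.93 in Active and 1.02 in Resting (adjusted p = 0.0016 and 0.0012). Lrp1, an endocytic receptor that clears the plasminogen activators, differed by 0.88 in Active and 0.99 in Resting (adjusted p = 0.0022 and 0.0014). Vldlr, a receptor of the same family, differed by 1.01 in Active and 0.77 in Resting (adjusted p = 0.0032 and 0.018). Its Resting call was lost without Control replicate 1 (0.72, adjusted p = 0.062), Control replicate 3 (0.65, adjusted p = 0.079), Resting replicate 1 (0.64, adjusted p = 0.057) or Resting replicate 2 (0.74, adjusted p = 0.061). Markers of stromal cells and vessels rose beside these genes. Of 12 fibroblast and repair matrix markers, 11 rose in Active and 12 in Resting, and their mean log2 signal lay between 10.56 and 10.86 in Active and between 10.57 and 10.92 in Resting, against 8.91 to 9.22 in Control. Of 12 endothelial markers, 7 rose and 1 fell in Active, and 6 rose and 1 fell in Resting. The one that fell in both was Vwf, which megakaryocytes also express. Of 13 monocyte and macrophage markers, 8 rose and 1 (Lyz2) fell in Active, and 9 rose and none fell in Resting. Among 11 bone markers, 1 rose (Ibsp) and 1 fell (Sost) in Active and 4 rose in Resting (Ibsp, Sp7, Spp1 and Col1a1), and among 12 skeletal muscle markers 5 rose in Active (Myh1, Myh2, Tnnt3, Actn3 and Mylpf) and none in Resting. The mean of the 7 tissue factor and fibrinolysis genes lay between 8.33 and 8.59 in Active and between 8.31 and 8.58 in Resting, against 7.59 to 7.71 in Control. The part of these cell types in the fibrinolysis result was not tested.

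Of the 6 anticoagulant genes, 3 rose and 1 fell in each fractured group. Of all rows, 11.8% were higher and 12.1% lower in Active, and 9.08% were higher and 10% lower in Resting. Tfpi encodes tissue factor pathway inhibitor, which blocks factor Xa and the complex of tissue factor with factor VIIa. Log2 signals of Tfpi were 7.63, 7.33 and 7.65 in Active, 7.77, 7.37 and 7.80 in Resting and 8.67, 8.93 and 8.26 in Control. All fractured tibiae lay below Control, with a difference of -1.08 (SE 0.18) in Active (adjusted p = 0.0013) and -0.97 (SE 0.18) in Resting (adjusted p = 0.0034), while F3 itself was higher. Tfpi2, a related Kunitz inhibitor found in extracellular matrix, had log2 signals of 7.41, 7.11 and 7.04 in Active, 7.42, 6.99 and 7.23 in Resting and 6.68, 6.42 and 5.86 in Control. It moved opposite to Tfpi, with differences of 0.87 (SE 0.20) in Active and 0.90 (SE 0.20) in Resting (adjusted p = 0.0089 and 0.0095). Procr encodes the endothelial receptor that presents protein C for activation, and Pros1 encodes protein S, its cofactor. Procr had log2 signals of 6.22, 6.70 and 6.59 in Active, 6.44, 6.52 and 6.67 in Resting and 6.03, 5.85 and 5.58 in Control, and differed by 0.68 in Active and 0.72 in Resting (adjusted p = 0.0081 and 0.0075). Pros1 had log2 signals of 7.46, 7.95 and 8.15 in Active, 7.57, 7.38 and 7.82 in Resting and 6.80, 7.02 and 6.96 in Control, and differed by 0.93 in Active and 0.66 in Resting (adjusted p = 0.003 and 0.023). For both, the fractured groups overlapped each other and lay above Control. With the methods' t-test and Benjamini-Hochberg adjustment, none of Tfpi, Tfpi2, Procr and Pros1 passed in either comparison with Control. At the methods' cut without adjustment, all of them passed in both. The Resting call of Pros1 was also lost without Control replicate 1 (0.60, adjusted p = 0.081), Control replicate 3 (0.68, adjusted p = 0.063) or Resting replicate 3 (0.55, adjusted p = 0.099). Thbd, thrombomodulin, which turns thrombin into an activator of protein C, had log2 signals of 7.82, 7.74 and 7.79 in Active, 7.73, 7.94 and 7.88 in Resting and 7.88, 7.74 and 7.68 in Control and was not called. Proc, protein C, lay under the lower quartile on all arrays.

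The protease-activated receptors are cut and switched on by thrombin or related proteases. F2rl2, or PAR3, a thrombin receptor of mouse platelets, had log2 signals of 7.01, 6.67 and 6.48 in Active, 7.04, 6.97 and 6.94 in Resting and 8.13, 8.28 and 7.99 in Control. It was lower in every fractured tibia, with a difference of -1.42 (SE 0.14) in Active and -1.15 (SE 0.14) in Resting (adjusted p = 4.2e-05 and 2.3e-04). F2rl3, or PAR4, the other thrombin receptor of mouse platelets, belongs to the further megakaryocyte list and was named here after its values were seen. It differed by -0.95 in Active and -1.04 in Resting (adjusted p = 2.8e-04 and 2.2e-04). F2rl1, or PAR2, which answers to trypsin-like proteases and to tissue factor with factor VIIa, had log2 signals of 6.54, 6.79 and 6.62 in Active, 6.09, 6.09 and 7.10 in Resting and 5.79, 5.53 and 5.84 in Control. All fractured tibiae lay above Control, with a wide spread in Resting, where replicate 3 stood apart from the other two. The difference was 0.93 (SE 0.24, adjusted p = 0.015) in Active and 0.71 (SE 0.24, adjusted p = 0.061) in Resting. The Active call was lost without Control replicate 2 (0.83, adjusted p = 0.061) or Active replicate 2 (0.86, adjusted p = 0.054), and the Resting difference passed without Resting replicate 1 or 2 (0.88 in each, adjusted p = 0.033 and 0.044) and was 0.37 without Resting replicate 3 (adjusted p = 0.11). F2r, or PAR1, the thrombin receptor of endothelium and fibroblasts, had log2 signals of 8.39, 8.30 and 8.17 in Active, 8.52, 8.05 and 8.34 in Resting and 8.38, 8.44 and 8.22 in Control, with overlapping groups and no call.

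Among the 10 clotting factors, 3 fell in Active and 2 in Resting, where 12.1% and 10% of all rows were lower. None rose, where 11.8% and 9.08% of all rows were higher. F5 encodes factor V, the cofactor of factor Xa, which is made by liver and is also held in platelet alpha granules. It had log2 signals of 7.05, 6.67 and 7.23 in Active, 7.75, 7.19 and 7.82 in Resting and 9.20, 9.34 and 9.21 in Control. Fractured tibiae lay far below Control, with a difference of -2.27 (SE 0.18) in Active, or 4.81-fold lower (adjusted p = 1.2e-05), and -1.67 (SE 0.18) in Resting, or 3.18-fold lower (adjusted p = 1.2e-04). F8, factor VIII, the cofactor of factor IXa that endothelium makes, had log2 signals of 6.32, 6.41 and 6.28 in Active, 6.33, 6.21 and 6.15 in Resting and 7.11, 7.38 and 6.76 in Control. All fractured tibiae lay below Control, with a difference of -0.75 in Active and -0.86 in Resting (adjusted p = 0.0033 and 0.0019). With the methods' t-test, adjusted likewise, p was 0.091 and 0.079, and F8 passed in both at the methods' unadjusted cut. F10, factor X, which makes thrombin once activated, had log2 signals of 6.65, 7.08 and 7.23 in Active, 7.37, 7.08 and 7.17 in Resting and 7.51, 7.79 and 7.70 in Control. All 6 fractured tibiae again lay below Control, but only Active passed, with -0.68 in Active and -0.46 in Resting (adjusted p = 0.0086 and 0.065). In Active, the methods' t-test gave an adjusted p of 0.12, and F10 passed at the methods' unadjusted cut. Without Active replicate 1, which changes the shared spread, the Resting difference of F10 passed (adjusted p = 0.025). Its neighbour on chromosome 8, F7, the ligand of tissue factor, had log2 signals of 6.23, 6.66 and 7.20 in Active, 6.42, 6.41 and 6.71 in Resting and 6.28, 5.87 and 6.24 in Control. It was not called, with 0.57 in Active (adjusted p = 0.089) and 0.38 in Resting (adjusted p = 0.28), and it passed in Active without Active replicate 1 (0.80, adjusted p = 0.015) and was 0.32 without Active replicate 3 (adjusted p = 0.28). F13a1, the chain of factor XIII that cross-links fibrin, which platelets and macrophages contain, had log2 signals of 8.92, 8.73 and 8.81 in Active, 8.77, 8.97 and 9.18 in Resting and 8.92, 8.91 and 9.19 in Control, with overlapping groups and no call.

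Some of the genes best known from liver gave little signal, while F10 lay above the median of all signals on every array. F2, F9, F13b, Proc and the fibrinogen chains Fga, Fgb and Fgg lay under the lower quartile of all signals on every array, between 3.07 and 4.68, and none of these 7 was called. F11 and F12 were not called either. The mean log2 signal of 12 hepatocyte markers lay between 5.43 and 5.48 in Active and between 5.39 and 5.54 in Resting, against 5.49 to 5.53 in Control. Of these markers 1 (Serpina1a) fell in Active and none was called in Resting. A list of 16 other coagulation genes had 3 higher and 3 lower in Active and 3 higher and 2 lower in Resting, beside the 11.8% higher and 12.1% lower of all rows in Active and the 9.08% and 10% in Resting. The higher ones named are enzymes and carriers of the secretory pathway. Vkorc1, which recycles vitamin K, differed by 1.26 and 1.32 (adjusted p = 2.2e-04 and 2.3e-04), Ggcx, the vitamin K-dependent carboxylase of clotting factors, by 0.68 and 0.77 (adjusted p = 0.01 and 0.0066), and Lman1, the cargo receptor for factors V and VIII, by 0.85 and 0.95 (adjusted p = 0.0025 and 0.0017), each in Active and then in Resting against Control. Kng1, kininogen, differed by -0.85 and -0.79 (adjusted p = 8.9e-04 and 0.0018) and lay under the median of all signals on every array. The other lower genes were Kng2 in both groups and A2m in Active. Genes beyond the 4 of a list with the smallest p were named after their values were seen.

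The last comparison asked whether the time of NSAID dosing went with a difference in these genes. No gene of the 38 passed in Active against Resting, and at an unadjusted p under 0.05 there were 5, where 6.11% of all rows had such a p. Of these 5, Ppbp, Treml1, Gp1ba and F5 were lower in Active and P2ry12 was higher. Ppbp differed by -0.89 (SE 0.24, 95% confidence interval -1.42 to -0.36, limma unadjusted p = 0.0036, adjusted p = 0.53), with all 3 Active arrays below all 3 Resting arrays. With the methods' t-test no gene passed after adjustment, and only Ppbp had an unadjusted p under 0.05 with at least 1.5-fold. The exact permutation test of Ppbp gave 0.10, the smallest two-sided p that 3 arrays against 3 allow. Treml1 differed by -0.53 (interval -0.98 to -0.07, adjusted p = 0.75) and Gp1ba by -0.39 (interval -0.64 to -0.15, adjusted p = 0.57), both without overlap. F5 differed by -0.60 (interval -1.003 to -0.20, adjusted p = 0.62) and P2ry12 by 0.39 (interval 0.07 to 0.71, adjusted p = 0.73), both with overlap. Gp5, Gp9 and Gp6 had overlapping arrays and differences of -0.27 (interval -0.59 to 0.05), -0.27 (interval -0.58 to 0.04) and -0.47 (interval -1.03 to 0.08). Without Active replicate 3, the differences of Treml1, Gp5, Gp9 and Gp6 were -0.34, -0.17, -0.16 and -0.20.

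By role, 8 of the 9 platelet genes had a log2 difference below 0 in Active against Resting, where 51.5% of all rows did, but for Pf4 both means were 10.62. The median difference was -0.27, and 4 of the 9 (Ppbp, Treml1, Gp1ba and Gp1bb) had all Active arrays below all Resting arrays, where 4.77% of all rows did. None of the 38 had all Active arrays above all Resting arrays (5.16% of all rows). The median over all rows was -0.01. In the further list of 30 megakaryocyte and platelet genes, 26 had a lower mean in Active, the median was -0.19 and 8 had all Active arrays below. The platelet median minus the fibrinolysis median was -0.28 in Active against Resting, -0.46 without Active replicate 1 and -0.12 without Active replicate 3. All 11 erythroid markers had a lower mean in Active, with a median of -1.11, and so did all 14 neutrophil markers, with a median of -0.52, and none of these markers passed. Of 12 skeletal muscle markers, 11 had a higher mean in Active, with a median of 0.23, 4 had all Active arrays above all Resting arrays and none passed. The part of these marrow and muscle cells in the platelet difference was not tested. In single arrays, the median signal of the platelet genes minus that of the fibrinolysis genes, each gene taken relative to its Control mean, was -2.19, -2.48 and -2.89 in Active and -1.94, -2.15 and -2.52 in Resting, against -0.10, 0.19 and -0.17 in Control. Active and Resting overlapped on this measure and both lay below Control.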

How the data were processed

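Per the labels and the study's methods, 100 ng of total RNA was labelled for each GeneChip Mouse Gene 2.0 ST array, and the authors normalized the signals and used GeneSpring GX, keeping transcripts called present. Neither the normalization algorithm nor the log base nor the genome build is given in the sources used here. The deposited values were taken as log2 signals, judged by their range. Of the 24367 rows analysed, each has identical values in a deposited table of 41345 probe sets, where the replicate numbers of Active and Resting run in another order. Where a symbol had several rows, the one with the highest mean of the 9 arrays was kept.

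Comparisons used lmFit and eBayes of limma 3.58.1 (R 4.3.3), with all 9 arrays in 1 model, 6 residual degrees of freedom and Benjamini-Hochberg adjustment over all rows. The steps were tested on simulated data. Plots were made in Python 3.11.15 with matplotlib 3.10.9. The members and lists were chosen with earlier results of these data known. Genes named from the further lists are up to 4 per list with the smallest p in Active against Control, unless said otherwise. Alternative settings were the methods' unpaired t-test, the probe set values, models of 2 groups with 3 arrays each, omission of the lowest 40% of rows by mean, quantile normalization or median centring, array weights, an intensity trend, replicate number as a block, the mean of all rows of a gene, a minimum of 1.5-fold and leaving out each array in turn. Arrays give no depth, and their number limits the precision. Of 14 erythroid markers 11 had a row, and of 14 monocyte and macrophage markers 13 had one. All listed neutrophil, B lymphocyte, endothelial, fibroblast, bone, skeletal muscle and hepatocyte markers had a row. One gene of the further lists is not reported here.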

Additional observations from a re-analysis of the deposited data

How the results depend on the processing

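Over 21 alternative settings none of 81 single-gene differences changed direction. Such a direction could change only with quantile normalization, median centring, array weights, the mean of all rows of a gene or an array omitted. The other settings keep the group means. The platelet median minus the fibrinolysis median kept its direction too, but was not recomputed with the t-test or the 1.5-fold minimum. Other list medians were not recomputed. Of the 81, 53 kept their side of the threshold in all settings. Most of the other 28 moved with the methods' t-test after adjustment, which gave 4 in place of 8 higher genes in Resting against Control. With that test F8 missed in both comparisons (adjusted p = 0.091 in Active and 0.079 in Resting), as did F10 in Active (0.12), and among the other genes Lman1, Ggcx and Vldlr in both, Lrp1 in Active and Mrc2 and Kng1 in Resting. Without adjustment, at p under 0.05 and 1.5-fold or more, the cut named in the methods, that test moved no call of the 81 against Control. It gave 1 lower gene of the 38, the platelet gene Ppbp, in Active against Resting, where limma after adjustment gave 0. Limma without adjustment gave 5 of the 38 at p under 0.05, of which Ppbp and F5 were also 1.5-fold or more. In the probe set table Pros1 missed in Resting (adjusted p = 0.054). F10 in Resting passed with 4 other settings and F2rl1 in Resting with 2 (filter and array weights).

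Leaving out 1 array at a time gave 8 to 10 higher and 11 to 12 lower genes in Active against Control, 7 to 10 higher and 10 to 11 lower in Resting against Control, and 0 in Active against Resting. It gave 6 to 7 lower platelet genes and 5 higher tissue factor and fibrinolysis genes in both comparisons with Control. The share of all rows called was computed for the main fit alone. Counts of called genes in any other setting therefore have no such share beside them. The platelet median minus the fibrinolysis median ranged from -2.61 to -2.39, from -2.35 to -2.08 and from -0.46 to -0.12 in Active against Control, Resting against Control and Active against Resting. The replicate numbers were not taken as pairs. Of 9 same-numbered pairs 1 had a correlation of deviations above 0.1 (range -0.25 to 0.17). That cannot decide on pairing, since the numbers of Active and Resting run in another order in the probe set table. With the replicate number as a block, 9 higher and 11 lower genes were called in Active against Control and 8 and 10 in Resting against Control, and no count changed. The filter on low values removed 11 of the 38 genes, so it gave no single value for them.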
